A study of Mus musculus with 12 samples.

Results

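The genes described here are the Cyp2c cytochromes P450 of mouse liver. They were chosen by name as Cyp2c29, Cyp2c37, Cyp2c38, Cyp2c39, Cyp2c40, Cyp2c44, Cyp2c50, Cyp2c54, Cyp2c55 and Cyp2c70, and each was to be read on the probe set of highest mean signal that carries its name. A probe set is the group of short probes on the array that together give 1 signal for a transcript. Of the 10 genes, 9 had a probe set named for them, exactly 1 each, among the 18193 genes named on the array's 45101 probe sets. Cyp2c40 was not analysed here. Cyp2c44 is listed under its present symbol, Cyp2c23, and was matched as a synonym of that symbol. Its probe set is of the kind that may also bind other members of its family. All 9 genes passed the filter, which kept the 22832 probe sets whose signal averaged 20 or more across the 12 arrays. Cyp2c39 passed it through the mice on the deficient diets, since its mean in mice on chow was 18.1.

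Cytochromes P450 are heme enzymes of the endoplasmic reticulum that insert an oxygen atom into their substrates with electrons passed on by P450 reductase. The mouse Cyp2c family is expanded in a gene cluster and most of its members are made in hepatocytes, where they oxidise drugs and turn arachidonic and linoleic acid into epoxides and hydroxy fatty acids. The constitutive androstane receptor and the pregnane X receptor are known to induce several of them, and hepatocyte transcription factors such as HNF4α keep them on.

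Livers came from 12 fasted C57BL/6 mice, 1 array each. Feeding began at 8 weeks of age and lasted 8 weeks, on normal chow (NC, 4 mice), on a methionine- and choline-deficient diet combined with a high-fat diet (MCD+HF, 4 mice), or on MCD+HF into which 0.1% metformin was mixed (MCD+HF+Met, 4 mice). The deficient diet produces a fatty, inflamed liver without the obesity of human disease, and the groups have no chow arm with metformin. Strain, age, duration and fasting were shared by all groups, and the sex of the mice is not given in the sources used here. Signals are Affymetrix intensities on a linear scale, which the authors scaled to an average of 100 per array.

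Arrays of the same group correlated at 0.966 to 0.985. The 3′ to 5′ ratio of the actin control probe sets, a sign of RNA quality, was 1.54 to 1.88 in NC, 1.46 to 1.62 in MCD+HF and 1.62 to 1.86 in MCD+HF+Met mice, and that of Gapdh averaged 0.71, 0.699 and 0.757. Hepatocyte markers were abundant in every library but fell with the diet, with 8 of 8 lower in MCD+HF than in NC mice (median log2 change -0.96), although under quantile normalization 2 were called lower and 1 higher. Their mean change from NC lay between -1.01 and -0.74 in MCD+HF mice, and with metformin between -0.81 and -0.58. The macrophage markers lay between 1.47 and 1.91 above NC in MCD+HF mice, and with metformin between 0.43 and 0.94 above it. With the diet, which changed 43.8% of all probe sets tested, 6 of 7 markers of stellate cells and myofibroblasts were higher and 0 lower, of 9 macrophage markers 6 were higher and 1 was lower (Clec4f, -1.36), and of 5 endothelial markers 1 was higher and 2 were lower (0 lower without NC mouse 4 or MCD+HF mouse 1 or 2). The 4 cholangiocyte markers were higher, but each of them, like Gpnmb and Trem2 of macrophages and Col1a1 of myofibroblasts, averaged under 20 in NC mice and so was tested because of its level on the deficient diets. Lymphocyte markers were too dim to be tested. The part of these cell types and of the RNA ratios in the changes of the Cyp2c genes was not tested. In whole liver, fewer hepatocytes and less RNA per hepatocyte cannot be told apart.

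The Cyp2c genes lie on chromosome 19, where in RefSeq's order the members run Cyp2c55, Cyp2c29, Cyp2c39, Cyp2c38, Cyp2c40, Cyp2c37, Cyp2c54, Cyp2c50, Cyp2c70 and Cyp2c44, among 15 protein-coding Cyp2c genes. Promoter sequences of RefSeq (build GRCm38.p6, 250 bases before to 50 after the start site) matched 8 of the 10 members. Those of 6 members are shown because they hold the most similar windows of the family and that of the member of bile acid metabolism. They cover chr19:39286835-39287134 on the plus strand for Cyp2c29, chr19:39347096-39347395 plus for the first of the pair of starts listed for Cyp2c39, chr19:39463026-39463325 minus for Cyp2c38, chr19:39992174-39992473 plus for Cyp2c37, chr19:40089429-40089728 plus for Cyp2c50 and chr19:40187237-40187536 minus for Cyp2c70. Each is written from 5′ to 3′ on the strand of its gene, and capitals mark the motifs found on either strand.
Cyp2c29: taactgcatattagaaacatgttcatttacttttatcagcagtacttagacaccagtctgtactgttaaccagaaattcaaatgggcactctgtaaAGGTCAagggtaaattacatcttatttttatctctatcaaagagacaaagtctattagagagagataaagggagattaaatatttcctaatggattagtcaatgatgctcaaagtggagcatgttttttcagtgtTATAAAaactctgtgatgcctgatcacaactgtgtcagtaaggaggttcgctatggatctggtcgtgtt
Cyp2c39: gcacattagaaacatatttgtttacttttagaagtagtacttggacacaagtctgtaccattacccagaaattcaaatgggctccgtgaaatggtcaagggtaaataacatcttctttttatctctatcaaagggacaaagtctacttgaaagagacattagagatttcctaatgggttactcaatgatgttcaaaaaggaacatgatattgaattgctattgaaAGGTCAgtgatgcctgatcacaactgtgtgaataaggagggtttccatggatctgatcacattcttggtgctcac
Cyp2c38: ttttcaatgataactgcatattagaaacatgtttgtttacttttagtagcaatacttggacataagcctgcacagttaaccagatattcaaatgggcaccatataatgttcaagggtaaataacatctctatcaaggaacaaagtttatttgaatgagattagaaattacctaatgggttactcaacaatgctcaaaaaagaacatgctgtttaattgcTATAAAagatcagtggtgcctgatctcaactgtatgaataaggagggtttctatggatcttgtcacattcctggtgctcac
Cyp2c37: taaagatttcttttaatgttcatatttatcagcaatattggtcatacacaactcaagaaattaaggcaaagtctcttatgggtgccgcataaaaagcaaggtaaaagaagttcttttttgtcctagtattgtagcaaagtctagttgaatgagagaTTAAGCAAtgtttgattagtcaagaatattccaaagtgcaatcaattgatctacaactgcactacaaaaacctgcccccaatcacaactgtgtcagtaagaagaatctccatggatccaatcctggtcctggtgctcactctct
Cyp2c50: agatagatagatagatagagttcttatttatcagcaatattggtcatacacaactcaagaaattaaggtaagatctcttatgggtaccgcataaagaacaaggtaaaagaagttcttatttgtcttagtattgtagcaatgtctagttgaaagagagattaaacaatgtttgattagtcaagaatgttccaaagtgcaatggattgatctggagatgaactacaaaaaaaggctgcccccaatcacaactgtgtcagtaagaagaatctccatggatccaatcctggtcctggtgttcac
Cyp2c70: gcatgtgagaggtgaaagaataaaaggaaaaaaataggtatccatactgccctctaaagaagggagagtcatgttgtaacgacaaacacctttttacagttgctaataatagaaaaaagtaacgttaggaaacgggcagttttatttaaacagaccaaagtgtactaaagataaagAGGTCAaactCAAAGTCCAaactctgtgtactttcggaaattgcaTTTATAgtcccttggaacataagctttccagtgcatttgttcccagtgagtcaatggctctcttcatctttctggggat

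The windows of Cyp2c37 and Cyp2c50 were 86.6% identical. The window of the first start listed for Cyp2c39 was 78.1% identical to that of Cyp2c38 and 75.7% to that of Cyp2c29. The second start listed for Cyp2c39 has its window at chr19:39510572-39510871 plus, on the far side of the Cyp2c38 window. For that start these values were 72.9% and 69%. The letters TATAAA of a TATA box were in 6 of the members' 9 windows and in 13.6% of all 32851 promoters of the same length. In Cyp2c40 they lie after the start site, at 41 to 46, and in Cyp2c39 they cross the second start listed, at -3 to 3, which is not where a TATA box lies. They are at -29 to -24 in Cyp2c55, -31 to -26 in Cyp2c38 and, closer to the start, -19 to -14 in Cyp2c29. In Cyp2c70 they were matched on the opposite strand, at -29 to -24. The nuclear receptor motif AGGTCA was in the windows of Cyp2c29, Cyp2c39 and Cyp2c70 and in 16.3% of all promoters. The HNF4 site CAAAGTCCA was in those of Cyp2c70 and Cyp2c40 and in 0.475% of all promoters. In Cyp2c70 it spans positions -64 to -56 from the start site, next to the AGGTCA at -74 to -69. The C/EBP site TTGCNNAA was in the windows of Cyp2c37 and Cyp2c40 and in 10.8% of all promoters. Both strands were searched, and no motifs overlapped in the printed windows. These matches describe letters in a window and say nothing of whether a factor was bound in these livers.

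The first comparison asked what the deficient diet did to these genes. Cyp2c transcripts fell in MCD+HF livers for most members, while Cyp2c39 rose. Among the 6 called lower, the fall was least for Cyp2c37 (2.11-fold) and most for Cyp2c54, whose signals on the diet were near the array medians. By limma, 6 members were lower and 1 was higher in MCD+HF than in NC mice, that is 7 of 9, whereas 43.8% of all probe sets tested were called (18.4% lower and 25.4% higher). The median log2 change was -2.11 over the 9 members and 0.06 over all probe sets tested. For the same 7 genes the signals of the 4 MCD+HF mice and the 4 NC mice did not overlap, which held for 40.6% of all probe sets. Log2 changes are on the scale of log2(signal + 10), which understates those of dim genes, and each value of a group is the mean ± SD of 4 mice.

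Among the members that epoxidise arachidonic acid, Cyp2c54 showed the largest fall. Its signals were 2507, 3209, 3106 and 3798 in the NC mice, and 29.7, 34.2, 29.7 and 18.8 in the MCD+HF mice. With metformin they were 27.3, 37.0, 38.4 and 19.8. Every mouse on either deficient diet was thus at 38.4 or below, where the median signals of the arrays were 19.0 to 23.0, and far below every chow-fed mouse. The mean went from 3155 ± 529 to 28.1 ± 6.55 (n = 4 each), a log2 change of -6.38 (SE 0.18, limma adjusted p = 1.7e-12). With signals on the diet this dim, the size of that fall depends on the offset, and over the alternatives it ran from -6.83 to -5.72.

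Cyp2c44, another epoxygenase, was measured at 3771, 3734, 3286 and 4174 in NC mice and at 561, 553, 633 and 627 in MCD+HF mice. The MCD+HF mice were tightly grouped, 6.30-fold below chow in their mean (log2 change -2.63, SE 0.14, limma adjusted p = 1.7e-09). Cyp2c50, whose promoter is the one most like that of Cyp2c37, gave 6128, 7163, 7333 and 6938 in NC and 1024, 1372, 1694 and 1488 in MCD+HF mice. That is a fall of 4.94-fold with the groups far apart (log2 change -2.32, SE 0.18, limma adjusted p = 6.2e-08).

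Cyp2c29, an abundant phenobarbital-inducible member, had signals of 6723, 7796, 7552 and 7937 in NC mice and 1242, 1345, 2276 and 2307 in MCD+HF mice, 4.18-fold lower (log2 change -2.11, SE 0.20, limma adjusted p = 6.0e-07). Cyp2c37, which makes hydroxy products of arachidonic acid, had 2803, 3283, 3096 and 3580 in NC and 894, 1157, 2118 and 1871 in MCD+HF mice. Its fall was 2.11-fold, the smallest of the 6 (log2 change -1.15, SE 0.27, limma adjusted p = 0.00296). For both genes MCD+HF mice 1 and 2 were lower than mice 3 and 4. The same held for Cyp2c44, Cyp2c50, Cyp2c68 (a Cyp2c gene outside the list) and, narrowly, Cyp2c39. For Cyp2c55 and Cyp2c70 mice 1 and 2 were higher than mice 3 and 4, and for Cyp2c38 and Cyp2c54 neither order held. In mice 1 and 2 the mean change of the macrophage markers was also higher, and that of the hepatocyte markers lower, than in mice 3 and 4. The cause of this split was not tested.

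Cyp2c70, the enzyme that makes the muricholic acids of mouse bile, was at 5561, 7002, 7488 and 4683 in NC mice and at 564, 594, 452 and 461 in MCD+HF mice. Its mean fell 11.9-fold, from 6184 ± 1293 to 518 ± 71.9 (log2 change -3.54, SE 0.16, limma adjusted p = 2.1e-10), and the NC mice were more spread than the mice on the diet. It ranked 45 among the falls of all probe sets tested, Cyp2c44 ranked 86, Cyp2c50 129, Cyp2c29 167 and Cyp2c37 648.

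Cyp2c39, a retinoic acid hydroxylase, moved in the other direction from low signals. The NC mice had 18.6, 24.3, 8.2 and 21.3, while the medians of their arrays were 20.2 to 22.2, and the MCD+HF mice 47.9, 38.9, 51.1 and 48.9. All MCD+HF mice were above all NC mice, and the log2 change was 1.05 (SE 0.19, limma adjusted p = 2.9e-04). Cyp2c38 is the neighbour whose promoter window is 78.1% identical to that of the first start listed for Cyp2c39. Its signals were 188, 256, 154 and 292 in NC and 154, 112, 182 and 127 in MCD+HF mice. These groups overlapped, and the log2 change of -0.58 (95% interval -1.09 to -0.07) missed the threshold (limma adjusted p = 0.0601). It passed under quantile normalization (0.0317) and in a fit of only the 2 groups (0.0292). It also passed without NC mouse 3 (0.0253), without MCD+HF mouse 3 (0.0411) and, through the shared variance, without MCD+HF+Met mouse 1 (0.0469) or 3 (0.0455). Cyp2c55, a member best known from the colon, had 78.4, 83.4, 69.3 and 98.9 in NC and 77.4, 72.7, 48.9 and 54.1 in MCD+HF mice, which overlapped (log2 change -0.35, 95% interval -0.71 to 0.02, limma adjusted p = 0.115). Under quantile normalization it passed at -0.49 (limma adjusted p = 0.026).

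The plot of signals by group shows these values for each mouse. Cyp2c68, a Cyp2c gene of the same cluster outside the list, had 2399, 2429, 2800 and 2628 in NC mice and 2147, 2048, 2813 and 2756 in MCD+HF mice. The mice given metformin had 2827, 2899, 2865 and 2616. Its log2 change with the diet was -0.08 (SE 0.11, 95% interval -0.31 to 0.14, limma adjusted p = 0.554), and its groups overlapped. Under quantile normalization Cyp2c68 was called higher than NC in MCD+HF mice and in MCD+HF+Met mice. Cyp2c65 was listed at signals too dim to be tested.

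**Figure D1:**
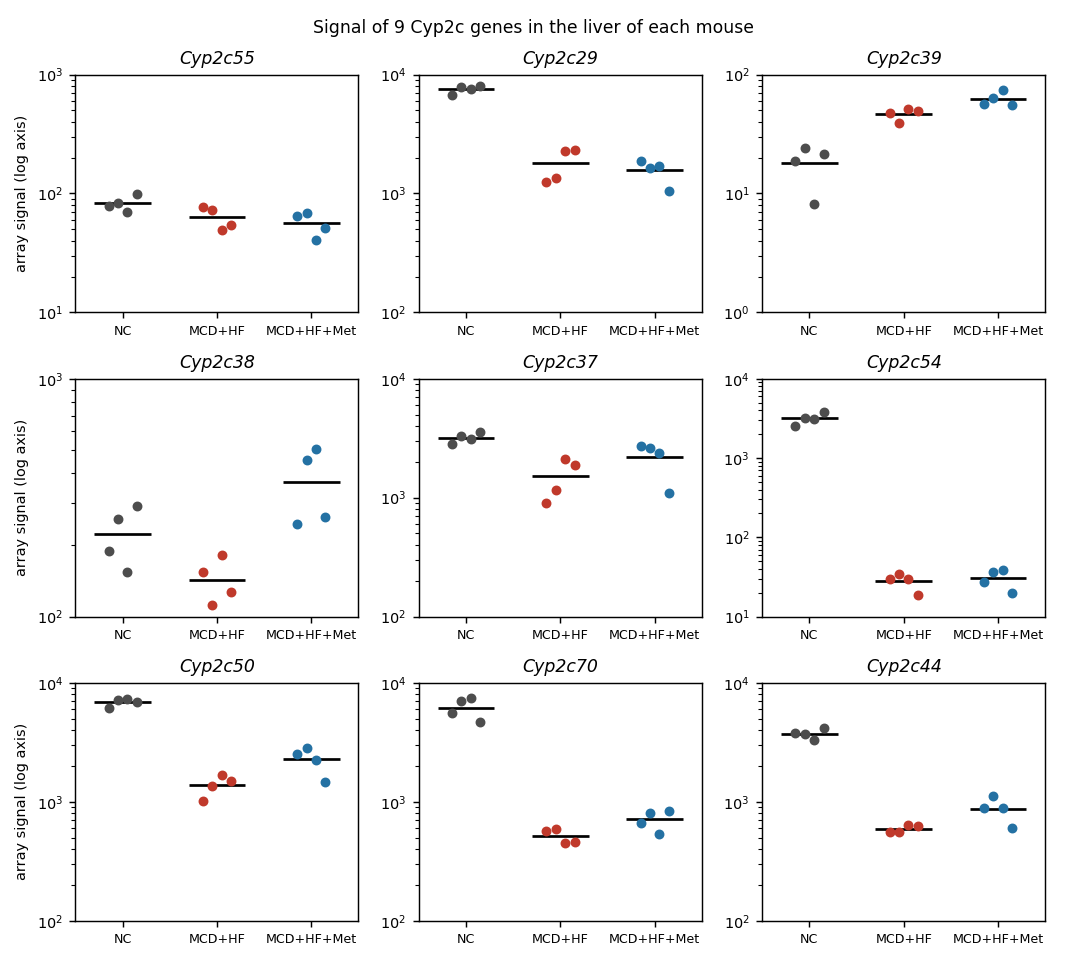
Signals of the 9 Cyp2c genes (log axes, GCOS signal scaled to an average of 100) in the liver of each mouse, with a point per mouse, a line at the mean of each group of 4 and the genes in their order on the chromosome. Cyp2c54 went from 3155 in NC to 28.1 in MCD+HF mice, Cyp2c39 rose from 18.1 to 46.7, and Cyp2c38 was highest in MCD+HF+Met mice with a mean of 367.

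The second comparison asked what metformin changed on the diet. It set MCD+HF+Met against MCD+HF mice. Cyp2c38 was higher in the livers of metformin-treated mice, Cyp2c50 was modestly higher, and the fall of Cyp2c54, Cyp2c29, Cyp2c70 and Cyp2c44 was still present. The actin ratio was higher in the metformin-treated group, as given above, and its part in this comparison was not tested. By limma 2 of 9 members were called, both higher, whereas 3.44% of all probe sets tested were called (1.24% higher and 2.21% lower). The median log2 change was 0.44 over the members and -0.02 over all probe sets tested. No member was called lower (0 at an unadjusted p under 0.05), 4 were higher at an unadjusted p under 0.05, and the methods' t-test with Benjamini-Hochberg adjustment called 0 members. The study singled out Cyp2c38, Cyp2c44, Cyp2c50 and Cyp2c70 on these same mice, so their direction here is not independent evidence.

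Cyp2c38 had signals of 244, 456, 505 and 263 in the MCD+HF+Met mice. All 4 were above the highest MCD+HF mouse at 182, and mice 2 and 3 were also above every NC mouse. The mean was 367 ± 133 against 143 ± 31.0 (n = 4 each), a log2 change of 1.25 (SE 0.24, 95% interval 0.74 to 1.76, limma adjusted p = 0.0105), the 15th largest rise among all probe sets tested. The call held in 21 of 22 alternative analyses and was lost under the methods' t-test with Benjamini-Hochberg adjustment (0.135).

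Cyp2c50 had 2549, 2860, 2258 and 1461 in MCD+HF+Met mice. Mouse 4 fell within the range of the MCD+HF mice, which reached 1694, and the other 3 were above it. The log2 change was 0.69 (SE 0.18, 95% interval 0.31 to 1.06, limma adjusted p = 0.0455). This call was lost in 18 of 22 alternatives at changes of 0.55 to 0.73, among them leaving out any NC mouse (0.0532 to 0.0596), MCD+HF mouse 1 (0.113), 2 (0.107) or 4 (0.0649), or MCD+HF+Met mouse 1 (0.108), 2 (0.142) or 3 (0.0805). Without MCD+HF+Met mouse 4 the change was 0.89 (limma adjusted p = 0.00522).

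Cyp2c44 had 881, 1130, 884 and 607 in MCD+HF+Met mice, of which mouse 4 lay within the MCD+HF range and the others above it. Its log2 change of 0.52 (SE 0.14, 95% interval 0.22 to 0.83) missed the threshold (limma adjusted p = 0.0572), and it was 0.68 without MCD+HF+Met mouse 4 (limma adjusted p = 0.00522). Cyp2c70 had 664, 807, 540 and 831 in MCD+HF+Met mice, where mouse 3 overlapped the MCD+HF mice. Its log2 change was 0.44 (95% interval 0.10 to 0.78, limma adjusted p = 0.144). Cyp2c37 had 2744, 2605, 2356 and 1103, with mice 1 to 3 above every MCD+HF mouse and mouse 4 near the low end of that group (log2 change 0.54, 95% interval -0.04 to 1.12, limma adjusted p = 0.298).

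For Cyp2c39 the 4 MCD+HF+Met mice, at 56.9, 62.9, 74.8 and 55.0, were all above the highest MCD+HF mouse at 51.1. The log2 change of 0.35 (95% interval -0.05 to 0.75) was not called (limma adjusted p = 0.324). Cyp2c38 and Cyp2c39, neighbours on the chromosome, were thus the 2 members whose groups did not overlap, both higher, while 5.35% of all probe sets tested did not overlap in that direction and 6.41% in the other. Cyp2c29 had 1869, 1637, 1696 and 1039 in MCD+HF+Met mice, within or just below the range of MCD+HF (log2 change -0.17, 95% interval -0.60 to 0.25, limma adjusted p = 0.691). Cyp2c55 had 64.5, 68.6, 40.7 and 50.8 (log2 change -0.15, 95% interval -0.51 to 0.22) and Cyp2c54 stayed at a mean of 30.6 ± 8.74 (log2 change 0.08, 95% interval -0.29 to 0.46).

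**Figure D2:**
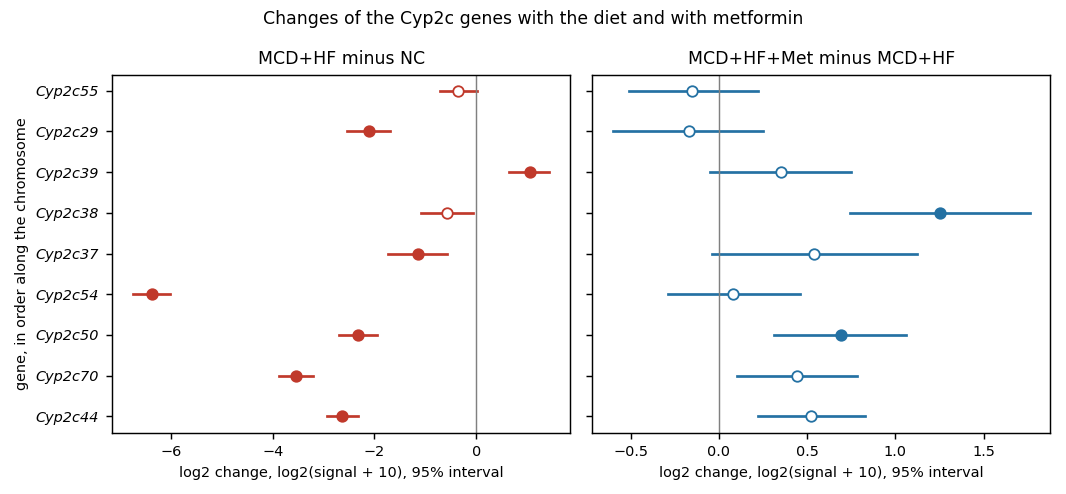
Log2 changes of the 9 genes on the log2(signal + 10) scale with 95% intervals from limma, for MCD+HF against NC (left) and MCD+HF+Met against MCD+HF (right), with filled points for adjusted p under 0.05 and different axis ranges on each side. The diet's changes run from -6.38 for Cyp2c54 to 1.05 for Cyp2c39, and with metformin the filled points are Cyp2c38 at 1.25 and Cyp2c50 at 0.69.

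The third comparison asked how far the livers of metformin-treated mice still differed from chow. Against NC, 8 of 9 members were called in MCD+HF+Met mice, 6 lower and 2 higher, whereas 39.7% of all probe sets tested were called (17.5% lower and 22.2% higher). The 2 groups did not overlap for 8 of 9 members, 7 lower and 1 higher, and for 34.8% of all probe sets. The median log2 change was -1.63 over the members and 0.03 over all probe sets tested. This comparison shares its arrays with the other comparisons and is no separate evidence. As a percentage of the NC mean, the MCD+HF and MCD+HF+Met means were 0.891 and 0.971 for Cyp2c54, 8.37 and 11.5 for Cyp2c70, 15.9 and 23.4 for Cyp2c44, 20.2 and 33.1 for Cyp2c50, and 23.9 and 20.8 for Cyp2c29. The metformin-treated mice were thus far below chow for each of these 5 genes, and their limma log2 changes from NC were -6.30, -3.10, -2.11, -1.63 and -2.29, with adjusted p of 3.2e-06 or less.

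Cyp2c37 reached 69.0% of the NC mean, and its log2 change of -0.61 was not called (limma adjusted p = 0.0887), although its highest treated mouse at 2744 was just below the lowest NC mouse at 2803. Cyp2c39, dim on chow, had a log2 change of 1.40 (limma adjusted p = 2.4e-05). Cyp2c38 stood at 165% of it (log2 change 0.67, SE 0.24, limma adjusted p = 0.0363) with overlapping groups, since MCD+HF+Met mice 1 and 4 were below the NC mouse at 292. That call was lost in 9 of 22 alternatives. Among them were no filter (0.0563), quantile normalization (0.0599), no variance trend (0.0519) and the methods' t-test with adjustment (0.178). It was also lost without NC mouse 1 (0.0895) or 3 (0.115) and without MCD+HF+Met mouse 2 (0.112) or 3 (0.124). Cyp2c55 was at 68.1% of the NC mean (log2 change -0.50, limma adjusted p = 0.0313). Its call was lost with no filter (0.0559) and under the methods' t-test with adjustment (0.0792). The call of Cyp2c55 was also lost without NC mouse 2 (0.062) or 4 (0.0894) and without MCD+HF+Met mouse 3 (0.104) or 4 (0.0643).

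Within a group the members did not rank the mice in 1 order. MCD+HF+Met mouse 4 was the lowest of its group for 6 of the 9 genes (Cyp2c29, Cyp2c37, Cyp2c39, Cyp2c44, Cyp2c50 and Cyp2c54) and the highest for Cyp2c70. The mean change of the 9 genes from NC was -1.98 in this mouse and -1.57, -1.35 and -1.53 in the other metformin-treated mice, against -2.11, -2.07, -1.84 and -1.98 in the MCD+HF mice. Hepatocyte markers were not lower in it (-0.58, the highest of its group), and macrophage markers were at 0.88 in a group range of 0.43 to 0.94. Its 3′ to 5′ ratio of the actin control probe sets was 1.62, at the low end of the group's 1.62 to 1.86, and no Cyp2c signal of any group was an outlier by Dixon's test among 27 groups tested.

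**Figure D3:**
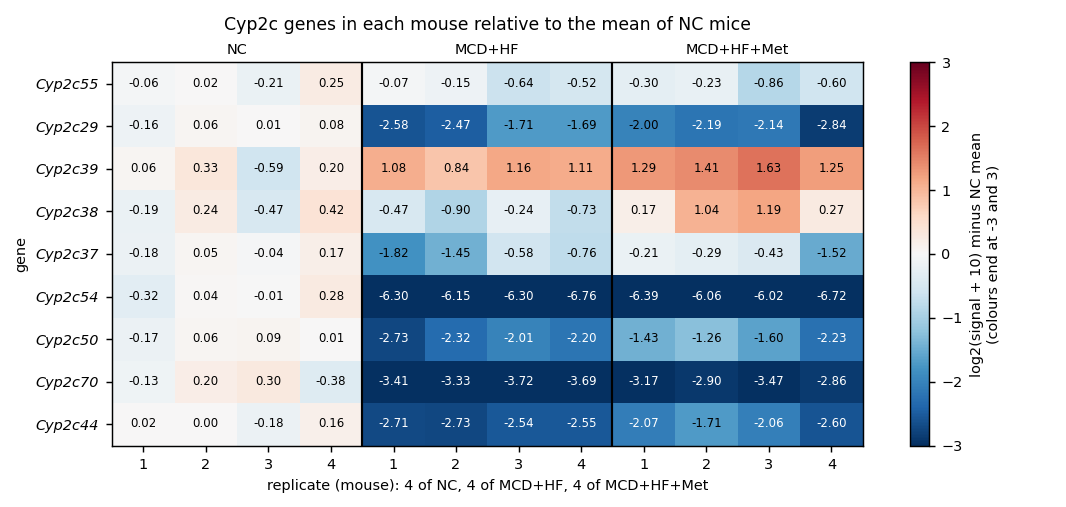
Change of each Cyp2c gene in each mouse from the mean of the NC mice, as a difference of log2(signal + 10), with genes in their order on the chromosome and a column per mouse. Cyp2c39 is above NC in all 8 mice on the deficient diets, Cyp2c38 is below it in the 4 MCD+HF mice and above it in the 4 MCD+HF+Met mice, and MCD+HF+Met mouse 4 has low values for most genes.

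Other genes of the P450 system were read from lists of textbook members, and their counts with the diet stand beside the 43.8% of all probe sets called. Their counts with metformin stand beside 3.44% of all probe sets called (1.24% higher and 2.21% lower). P450s of drug metabolism outside Cyp2c moved with the diet, with 10 of 12 tested lower and 1 higher (median log2 change -0.98). Cyp2d9 went from 10017 ± 644 to 1649 ± 311 (log2 change -2.61, limma adjusted p = 2.3e-10) and Cyp2f2 from 10634 ± 937 to 1144 ± 238 (-3.23, limma adjusted p = 2.4e-09), and Cyp2d10 fell by 1.19 (limma adjusted p = 7.1e-08). Cyp1a2, Cyp3a11 and Cyp2e1, which handle many drugs, fell by 1.93, 0.92 and 0.86 on the log2 scale. The 1 that rose was Cyp3a44, typical of female mouse liver, from 17.4 ± 5.98 to 498 ± 178 (log2 change 4.17, limma adjusted p = 1.5e-08). Its signal on chow was under the filter of 20, so it was tested because of its level on the deficient diets. With metformin limma called 0 of the 12, 2 were higher at an unadjusted p under 0.05, and the methods' t-test with adjustment called 0, while 1 was called higher without NC mouse 4 or MCD+HF+Met mouse 4.

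Enzymes of bile acid synthesis, the pathway that Cyp2c70 serves downstream, fell in 5 of 6 cases with the diet. Cyp7b1, of the alternative pathway, went from 6484 ± 989 to 296 ± 73.0 (log2 change -4.43, limma adjusted p = 4.7e-10), and Cyp27a1 fell by 1.77, Hsd3b7 by 1.03 and Akr1d1 by 0.45 on the log2 scale. Cyp8b1, the 12α-hydroxylase, had a log2 change of -1.27 (limma adjusted p = 0.0267), but its groups overlapped. Its signals were 369, 260, 1600 and 1412 in MCD+HF mice and 1543 to 1888 in NC mice, so that mice 1 and 2 carried most of the fall. Cyp7a1, which opens the classical pathway, had a log2 change of -1.07 that was not called (limma adjusted p = 0.0633). The methods' t-test with adjustment called 4 of the 6 enzymes lower with the diet. With metformin limma called 0 of these 6, with 1 higher at an unadjusted p under 0.05 and 0 by the methods' t-test with adjustment, and 1 was called higher without MCD+HF+Met mouse 3, with the filter at 50 and with the replicate block.

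Among the electron carriers and other P450 partners 3 of 5 tested were lower with the diet. They were cytochrome b5 (Cyb5a, log2 change -0.73, limma adjusted p = 7.1e-07), its reductase Cyb5r3 (-0.75, 1.0e-06) and the P450 partner Pgrmc1 (-0.81, 2.9e-07). Under quantile normalization 1 of the 5 was lower. Cyb5r3 was the 1 of these 5 called with metformin, from 1411 ± 64.5 to 1754 ± 85.1 (log2 change 0.31, limma adjusted p = 0.0338). That call was lost without any 1 of the 4 MCD+HF mice or MCD+HF+Met mouse 1, 2 or 3. It was also lost with no filter, quantile normalization, the replicate block, no variance trend, only the 2 groups or the methods' t-test with adjustment. Each of these left 0 of the 5 called. P450 reductase itself was not analysed here. Of 8 genes of heme synthesis and breakdown, 2 were lower and 1 was higher with the diet, and under quantile normalization 3 were lower and 2 higher. The higher one was Hmox1, which degrades heme, at 85.7 ± 15 on chow and 409 ± 108 on the deficient diet (log2 change 2.11, limma adjusted p = 5.1e-08). With metformin it was at 233 ± 13.2 (log2 change from MCD+HF -0.75, limma adjusted p = 0.0179), a call lost without MCD+HF+Met mouse 2 and under the methods' t-test with adjustment, where 0 of the 8 remained called. The lower ones were Uros (-0.77) and Fech (-0.56), the last enzyme of heme synthesis. Alas1, the first, had a log2 change of 0.56 that was not called (limma adjusted p = 0.113).

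Enzymes that make, compete for or clear arachidonate products were tested for 11 of 16 genes, of which 5 were lower and 3 higher with the diet. Ephx2, the soluble hydrolase that opens the epoxides made by Cyp2c enzymes, went from 3805 ± 666 to 2311 ± 246 (log2 change -0.71, limma adjusted p = 2.8e-04), and Ephx1, the microsomal one, had a change of -0.22 (0.214). Cyp2j5, an epoxygenase of another family, fell by 1.94 on the log2 scale. Alox5ap, which helps 5-lipoxygenase, rose by 1.16. Hpgds, a prostaglandin D synthase, had a log2 change of 1.56 from a mean of 8.35 on chow to 43.9 on the diet, so it passed the filter through the MCD+HF mice. With metformin 2 of the 11 were lower and 1 was higher, beside 2.21% and 1.24% of all probe sets tested. Pla2g12b, a secreted phospholipase relative that fell by 0.69 with the diet, went from 467 ± 53.4 to 717 ± 100 (log2 change 0.61, limma adjusted p = 0.0103), while Hpgds (-0.98, 0.0194) and Pla2g4a (-0.69, 0.0426), which frees arachidonate, were lower. Neither lower call was present with no offset or without MCD+HF mouse 1 or 2, which left 1 gene of the list called. The methods' t-test with adjustment called 0. With the filter at 50, Hpgds and Pla2g4a were too dim to be tested.

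Of 12 regulators of P450 genes 8 were lower and 1 was higher with the diet. Hnf4a fell by 0.84 (limma adjusted p = 1.7e-05), Cebpa by 1.06 (0.00192), the bile acid receptor Nr1h4 by 0.54 (0.00105) and its target Nr0b2 by 2.84 (8.2e-08). Nr1i2, the pregnane X receptor, had a log2 change of 0.59 (limma adjusted p = 0.0301). Nr1i3, the constitutive androstane receptor that induces Cyp2c29 and Cyp2c37, was at 510 ± 165 on chow, at 477 ± 122 on the deficient diet and at 354 ± 10.9 with metformin added, and it was not called (limma adjusted p = 0.739 with the diet and 0.294 with metformin). With metformin limma called 0 of the 12, with 3 higher at an unadjusted p under 0.05 and 0 by the methods' t-test with adjustment, and 1 was called higher without MCD+HF mouse 1 or MCD+HF+Met mouse 1 or 4 and with the replicate block.

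**Figure D4:**
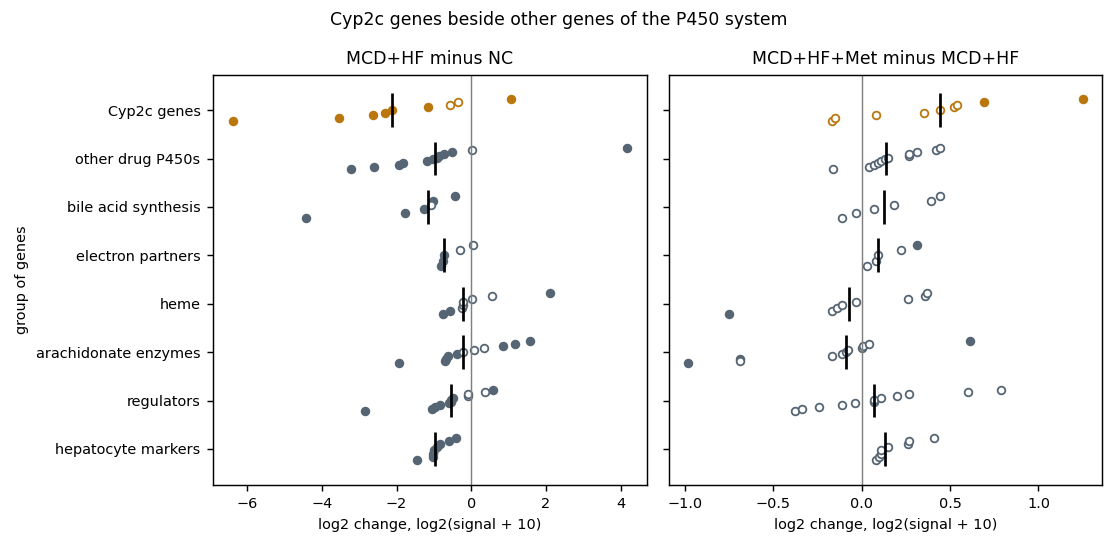
Log2 changes on the log2(signal + 10) scale of the Cyp2c genes and of the other lists, a point per gene, filled for limma adjusted p under 0.05, with a bar at the median of each list, for MCD+HF against NC (left) and MCD+HF+Met against MCD+HF (right, on a different axis range). With the diet the medians were -2.11 for the Cyp2c genes, -0.98 for the other drug P450s, -1.17 for bile acid synthesis and -0.96 for hepatocyte markers.

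As a description over the 12 arrays, the gene most like each member was found by Pearson's r among the named probe sets outside Cyp2c. It was Ces2a for Cyp2c54 (r = 0.997), Fxyd1 for Cyp2c44 (0.996), Sdr9c7 for Cyp2c70 (0.992), Ttc36 for Cyp2c29 (0.990) and Aldh2 for Cyp2c50 (0.986). For Cyp2c39 it was Dnajc2 (0.983), for Cyp2c55 Pitpnc1 (0.949), for Cyp2c37 Uqcrc1 (0.937) and for Cyp2c38 Gdi2 (0.930). All of these genes were compared over the same 12 arrays, which include the split between chow and the deficient diets.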

How the data were processed

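The authors hybridised 1 Affymetrix Mouse Genome 430 2.0 array per mouse and deposited 1 signal intensity per probe set, computed with GeneChip Operating System (GCOS) and scaled to an average of 100 per array. Its detection and change calls were not used here. Groups and mouse numbers came from the labels. A constant of 10 was added before taking log2, 64 controls and probe sets with a mean intensity under 20 were left out, and limma fitted 1 model to the 12 arrays for the 3 comparisons (version 3.58.1 in R 4.3.3, eBayes with a variance trend, 9 residual degrees of freedom, two-sided, Benjamini-Hochberg adjustment over 22832 probe sets, threshold 0.05). Precision rests on 4 mice per group, and p-values reflect the variation among those mice. Figures used Python 3.11.15 and matplotlib 3.10.9. The fit was tested on simulated data.

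Probe sets were named from an annotation in which 34945 carried 1 gene, 932 several and 9160 were unnamed here, with symbols updated by gene identifier. Probe sequences were not examined, so that binding of close Cyp2c paralogs was not tested. All 9 measured members are named, and from each list up to 4 called genes of lowest adjusted p per comparison, with a few pathway genes regardless of call. The members and lists were chosen with earlier results of these data known. The methods' t-test, the offset, the filter, quantile normalization, the variance model, the replicate block and leaving out each mouse were tried as alternatives.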

Additional observations from a re-analysis of the deposited data

How the results depend on the processing

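The count of Cyp2c genes called ranged from 6 to 9 for MCD+HF against NC (7 as reported) and from 6 to 8 for MCD+HF+Met against NC (8 as reported) over 23 alternatives each. For MCD+HF+Met against MCD+HF the count of 2 became 1 with no offset, no filter, quantile normalization, the replicate block, a robust variance, no variance trend and a fit of only the 2 groups, and 0 with the methods' t-test after adjustment. Leaving out 1 mouse gave 1 to 3, with 3 without MCD+HF+Met replicate 4 and 2 without MCD+HF replicate 3. The offset of 32, the filter at 50 and the methods' rule kept the count at 2. Uncalled changes with metformin that changed sign were Cyp2c29, at 0.01 (-0.33 to 0.01 over the mice left out) without MCD+HF+Met replicate 4, and Cyp2c54, at -0.05 without MCD+HF replicate 4 and -0.01 without MCD+HF+Met replicate 3 (-0.05 to 0.22 over the mice left out). The cause was not tested. The log2 change of Cyp2c54 with the diet ran from -6.83 to -5.72 over the alternatives. Cyp2c39 was left out by the filter at 50. Choosing another probe set gave no other value, as each gene had 1.

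The mouse numbers were read as sample names and not as pairs. Of 12 same-number pairs, 2 had correlated deviations over 0.1 (range -0.134 to 0.251). The highest was mouse 4 of MCD+HF with mouse 4 of MCD+HF+Met. Pairs of different numbers ranged from -0.214 to 0.132. These values cannot exclude that some mice were paired. With the replicate block, Cyp2c50 with metformin had an adjusted p of 0.0507 and Cyp2c38 against NC one of 0.0526, and both calls were lost.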
